A study of Mus musculus with 20 samples.

Results

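A single pulse of gonadotropin-releasing hormone (GnRH) at 100 nM was compared with a single pulse at 10 nM in LβT2 cells, a mouse pituitary gonadotrope line. The arrays were chosen by their titles, which name 1 pulse and the dose, and they make up 4 of the 20 arrays of the series, with 2 at each dose. Cells grown on microcarrier beads were kept without serum, loaded into perifusion columns and perifused for 4 h, during which GnRH was given for 2 min once, in repeated pulses or continuously (tonic). Affymetrix arrays measured the total RNA harvested when perifusion stopped. The arrays at 100 nM carry the code letters A and D, those at 10 nM the letters B and C, and the 2 unstimulated arrays, from cells perifused with medium alone, A and D again. Dose and letter therefore cannot be told apart in any comparison of the doses. The labels do not say whether the arrays of a dose came from separate cultures. The p-values measure the spread between arrays of a group, pooled over all 20 arrays, which may be technical. The time from the single pulse to the harvest of RNA is not given in the sources used here. LβT2 is a clonal line from a pituitary tumour of transgenic mice, made with a viral oncogene under the promoter of the luteinizing hormone beta chain, so every group shares that background.

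GnRH is the hypothalamic peptide that drives gonadotropes to make and release luteinizing and follicle-stimulating hormone. Its receptor couples mainly to Gq, which acts through phospholipase C, calcium and protein kinase C, and through them the MAP kinases. The first genes to respond encode transcription factors such as Egr1 and the Fos and Jun proteins, followed by inhibitors that damp the same pathway, among them the Egr corepressors Nab1 and Nab2, Rgs2 and the Dusp phosphatases.

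The 250 bases before the start of transcription are shown for 4 of the genes that differed between the doses, because they include 3 genes whose windows hold a match to a searched motif and Idi1, the gene with the smallest p. The sequences are those of RefSeq on GRCm38.p6, 5′ to 3′ on the strand of the gene, and capitals mark the motif matches. Srxn1 (chr2:152105274-152105523, plus strand), Hmgcs1 (chr13:119690101-119690350, plus strand), Idi1 (chr13:8885356-8885605, plus strand) and Rgs2 (chr1:144004150-144004399, minus strand) read as follows.
Srxn1: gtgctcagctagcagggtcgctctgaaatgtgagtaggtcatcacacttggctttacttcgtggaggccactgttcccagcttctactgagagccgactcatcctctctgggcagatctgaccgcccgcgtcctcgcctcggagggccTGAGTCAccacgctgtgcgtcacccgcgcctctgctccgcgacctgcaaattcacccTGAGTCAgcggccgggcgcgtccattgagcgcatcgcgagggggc
Hmgcs1: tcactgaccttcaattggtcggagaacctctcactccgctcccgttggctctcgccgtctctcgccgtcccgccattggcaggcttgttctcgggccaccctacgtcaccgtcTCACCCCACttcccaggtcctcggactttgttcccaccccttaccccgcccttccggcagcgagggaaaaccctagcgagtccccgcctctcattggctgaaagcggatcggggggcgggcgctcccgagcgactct
Idi1: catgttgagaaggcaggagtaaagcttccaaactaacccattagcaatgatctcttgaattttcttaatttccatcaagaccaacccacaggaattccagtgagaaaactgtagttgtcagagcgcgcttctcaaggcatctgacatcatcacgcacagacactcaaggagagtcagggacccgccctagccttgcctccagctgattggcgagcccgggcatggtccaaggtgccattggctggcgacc
Rgs2: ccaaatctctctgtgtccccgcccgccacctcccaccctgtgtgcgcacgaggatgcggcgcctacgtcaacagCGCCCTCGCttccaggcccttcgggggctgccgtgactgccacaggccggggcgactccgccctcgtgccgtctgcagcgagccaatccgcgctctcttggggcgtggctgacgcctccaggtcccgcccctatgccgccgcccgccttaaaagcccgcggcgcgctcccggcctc

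Srxn1 held the AP-1 letters TGANTCA, the site bound by Fos and Jun dimers, at bases 149 to 155 and again at bases 206 to 212 of the window. Hmgcs1 held the sterol regulatory letters TCACNCCAC at bases 114 to 122. Rgs2 held the EGR letters GCGNGGGCG on the opposite strand at bases 75 to 83, and Idi1 held none of the motifs searched. Windows were found for 9 of the 14 genes called below, 11 windows in all, and both strands were searched. The AP-1 letters stood in 1 of the 11 windows and in 6.75% of all 32851 windows of this length. The sterol regulatory letters stood in 1 window and in 1.05% of all windows. The EGR letters stood in 3, those of Rgs2, Hipk2 and Tubb3, and in 4.7% of all windows. The cAMP response letters TGACGTCA (1.55% of all windows), the antioxidant response letters TGACNNNGC (10.2%), the CArG box of serum response factor (1.47%) and the E-box CACGTG (6.02%) were in none of the 11. The AP-1 and antioxidant response letters can overlap. A match describes the letters only.

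The deposited values are MAS5 probe set signals on a linear scale. Differences below are on the scale of log2(signal + 166.8), 100 nM minus 10 nM, where 166.8 is the 25th percentile of all signals, and this understates the change of dim probe sets. Each difference has the standard error and the Benjamini-Hochberg adjusted p of a limma fit to all 20 arrays. The 4 arrays had median signals of 755 to 807 and a Gapdh 3′ to 5′ ratio, a sign of RNA integrity, of 0.900 to 1.07. Log2 values correlated at 0.974 between the 100 nM arrays, at 0.981 between the 10 nM arrays and at 0.968 to 0.973 between arrays of different dose. The gonadotrope defining genes were all measured. Signals of Cga, the common alpha chain of the gonadotropins, ran from 84119.5 to 114451 on the 4 arrays, those of the luteinizing hormone gene Lhb from 2852 to 3661, of the GnRH receptor Gnrhr from 649 to 942 and of the transcription factor Nr5a1 from 11525 to 15849. Fshb, the follicle-stimulating hormone chain, gave 324 to 418, did not reach the signal of 427 on 2 arrays and was not tested.

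After a single pulse, 11 probe sets were higher at 100 nM than at 10 nM and 3 were lower. The higher ones included Rgs2, which limits signalling by Gq, the early response factor Fosl1, the cholesterol synthesis genes Idi1 and Hmgcs1, the antioxidant enzyme gene Srxn1 and the cell cycle inhibitor Cdkn1a. The lower ones were Tubb3, Maf1 and Tbc1d10a. The largest called difference was that of Rgs2, 3.45-fold, and the smallest that of Hmgcs1, 1.72-fold. The 14 called are 0.165% of the 8491 probe sets tested, with 0.13% higher and 0.0353% lower. At an unadjusted p under 0.05 there were 806 (436 higher and 370 lower), where chance gives about 425. The count rested on the 4 arrays together: it was 0 without 100 nM A or 10 nM B, 1 (Idi1) without 10 nM C, and 1 without 100 nM D, which was not among the 14. It was also 1 (Idi1) with no filter on low signals or no intensity trend, and 4 (Idi1, Nefm, Hipk2 and Maf1) with array medians set equal. Groups taken from the pulse number field of the labels, which contradicts the title for 100 nM D and 10 nM C, gave 0 calls with 169 at an unadjusted p under 0.05. In the other alternative fits to these titles, the 14 differences all kept their direction.

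**Figure D1:**
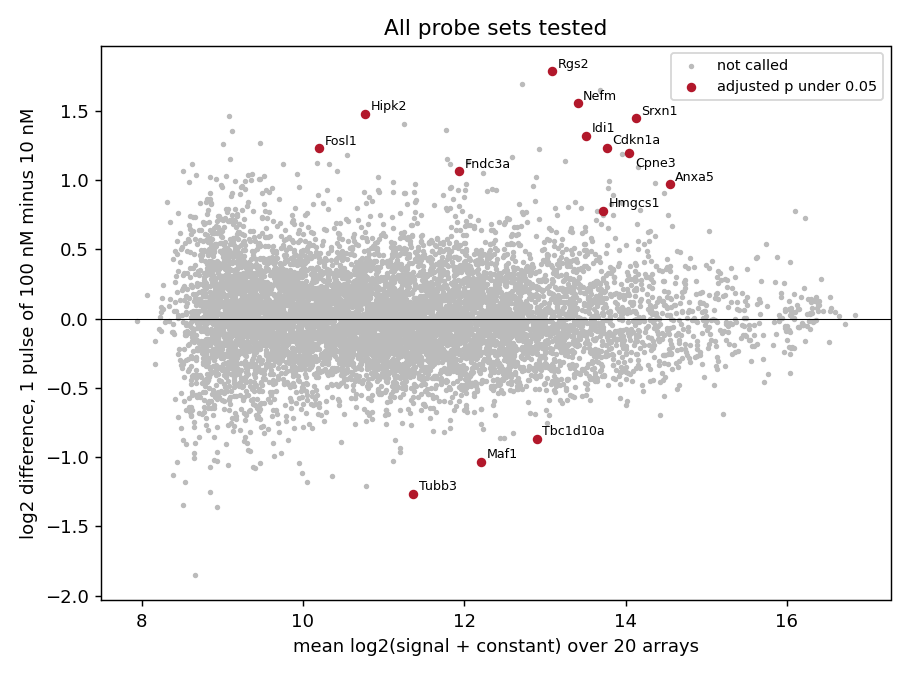
Each point is 1 of the 8491 probe sets tested, with its mean log2(signal + 166.8) over the 20 arrays on the x axis and its log2 difference, single pulse of 100 nM minus single pulse of 10 nM, on the y axis. The 14 called probe sets, in red with their gene symbols, lie at or above 0.78 or at or below -0.87, and grey points of like size beside them were not called.

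Among genes of the signalling response, Rgs2 had the largest called difference. Rgs2 speeds the switching off of Gq. Its signals were 6183 on 100 nM A and 6112 on 100 nM D, against 1909.9 on 10 nM B and 1447 on 10 nM C. The doses were far apart and the unstimulated arrays, at 1781 and 3148, overlapped the 10 nM arrays. The difference was 1.79 ± 0.30 (adjusted p = 0.0302, 2 against 2 arrays). Fosl1, an AP-1 subunit of the Fos family, gave 941 and 588 at 100 nM against 188 and 263 at 10 nM. The 10 nM and unstimulated signals of Fosl1 (289 and 269) were dim, all under the filter signal of 427, and the doses did not overlap. Its difference was 1.23 ± 0.23 (adjusted p = 0.0373).

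Both called members of the cholesterol pathway act before the sterol ring is made. Idi1, isopentenyl-diphosphate isomerase, gave 10179.7 and 11296 at 100 nM against 3822 and 4599 at 10 nM. The unstimulated arrays, at 5679 and 6803, lay between the doses and overlapped neither. The difference of 1.32 ± 0.18, or 2.5-fold, had the smallest adjusted p of all probe sets (0.00579). Hmgcs1, HMG-CoA synthase, gave 18339.9 and 20165 at 100 nM, 10726 and 11562 at 10 nM, and 11863 and 10782 without GnRH. Here the 10 nM and unstimulated arrays overlapped and both 100 nM arrays stood above them. The difference was 0.78 ± 0.15 (adjusted p = 0.0489).

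Of the genes known from stress and growth arrest, Srxn1 encodes sulfiredoxin, which repairs oxidized peroxiredoxins. Srxn1 signals were 9737 and 9029 at 100 nM against 4108 and 2701 at 10 nM, and 3681 and 3456 without GnRH. The 10 nM arrays lay on either side of the unstimulated ones, with the 100 nM arrays far above. The difference was 1.45 ± 0.26 (adjusted p = 0.0373), while a second, dimmer probe set of Srxn1 gave -0.13 ± 0.24. Cdkn1a, the inhibitor p21 of cyclin-dependent kinases, gave 11356 and 9616 at 100 nM and 5249 and 3592 at 10 nM, a difference of 1.23 ± 0.22 (adjusted p = 0.0373). The unstimulated arrays, at 5687 and 5179, overlapped the 10 nM range. A second, brighter probe set of Cdkn1a did not pass, at 0.98 ± 0.33 (adjusted p = 0.332). Hipk2, a nuclear kinase that acts on p53, gave 1332 and 2060.5 at 100 nM against 524 and 457 at 10 nM. Both unstimulated arrays (802 and 1111) fell between the doses, and the difference was 1.48 ± 0.26 (adjusted p = 0.0373).

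Of the remaining called genes with more signal at 100 nM, Nefm encodes the medium neurofilament chain and gave 10463 and 13639 at 100 nM, 4076 and 3851 at 10 nM, and 5741 and 4018 without GnRH. Only the 100 nM arrays stood apart, by 1.55 ± 0.24 from the 10 nM arrays (adjusted p = 0.0198). Cpne3, a copine that binds membranes in the presence of calcium, gave 16271 and 15142 at 100 nM and 6814 and 6687 at 10 nM, below both unstimulated arrays at 7892 and 10303. Its difference was 1.20 ± 0.22 (adjusted p = 0.0373). Anxa5, an annexin that binds phosphatidylserine, gave 25627 and 18784 against 12904 and 9594, a difference of 0.97 ± 0.19 (adjusted p = 0.0394). Fndc3a gave 3514 and 2803 at 100 nM against 1382 and 1452 at 10 nM, a difference of 1.06 ± 0.21 (adjusted p = 0.0478). Anxa5 and Fndc3a fall outside the rule for naming genes and are given because they complete the called set; they were chosen after their values were seen. Tubb3, a beta tubulin of neurons, had less signal at 100 nM, with 2180.4 and 1812 at 100 nM and 5078 and 4941 at 10 nM. The unstimulated arrays, at 2972 and 4053, lay between the doses. The difference was -1.26 ± 0.24 (adjusted p = 0.0373). A brighter probe set of Tubb3, like the called one of a kind whose probes can match several transcripts, gave -0.59 ± 0.31 (adjusted p = 0.565).

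Maf1, a repressor of transcription by RNA polymerase III, and Tbc1d10a, a GTPase-activating protein for Rab proteins, were the other called genes with less signal at 100 nM. Maf1 gave 3990.0 and 4962 at 100 nM against 9110.4 and 9496 at 10 nM, with 6219 and 8604 without GnRH. Its difference was -1.04 ± 0.20 (adjusted p = 0.0373). Tbc1d10a gave 5617 and 6144 against 10513 and 11196, with 8675 and 9810.1 without GnRH. Its difference was -0.87 ± 0.16 (adjusted p = 0.0373), and in both genes the unstimulated arrays lay between the doses. A second, dimmer probe set of Tbc1d10a gave -0.68 ± 0.50 (adjusted p = 0.695), with overlapping doses. The next genes toward lower signal did not pass: Akr7a5 (-0.82 ± 0.17, adjusted p = 0.0636), Hes6 (-0.82 ± 0.18), Pgls (-0.79 ± 0.18), Bckdk (-0.69 ± 0.16) and Tufm (-0.76 ± 0.19, adjusted p = 0.123). In each of these 5 both 100 nM arrays lay below both 10 nM arrays, which held for the genes because the rule for naming them requires it.

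**Figure D2:**
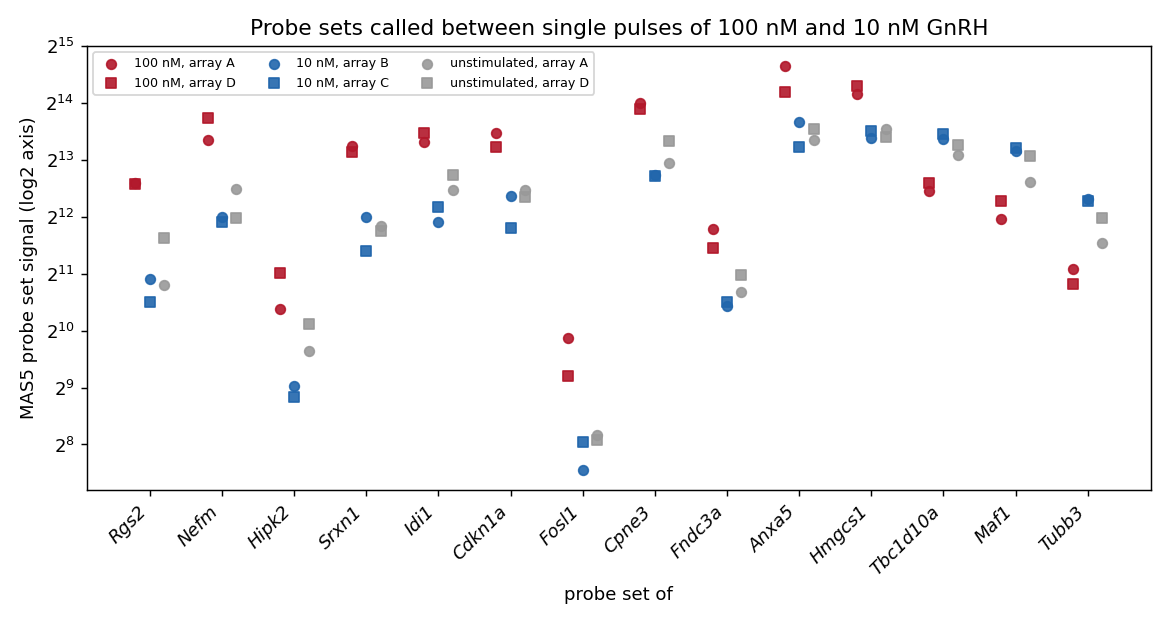
Signals of the 14 called probe sets on a log2 axis, 1 column a gene, with the 2 arrays at 100 nM in red, the 2 at 10 nM in blue and the 2 unstimulated arrays in grey. The first 11 columns have both red points above both blue ones, and in Tbc1d10a, Maf1 and Tubb3 the red points are lowest, the blue highest and the grey between them.

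Set beside medium alone, the 2 doses are described against the same unstimulated arrays, which the comparisons share. For all 11 probe sets higher at 100 nM, both 100 nM arrays exceeded both unstimulated arrays, and for 5 of them both 10 nM arrays also lay below both unstimulated arrays. Among all 1365 genes with separate doses higher at 100 nM, these numbers were 527 and 665, so the count of 5 is near the share over all genes. For the 3 lower ones, both 100 nM arrays lay below and both 10 nM arrays above the unstimulated pair, which held for 602 and 658 of all 1429 genes with separate doses lower at 100 nM. The called probe sets were chosen by their difference between the doses on these same arrays. The numbers over all genes are thus not a like background for them. Idi1 was 0.77 ± 0.18 above unstimulated at 100 nM and -0.55 ± 0.18 from it at 10 nM. Hipk2 gave 0.72 ± 0.26 and -0.76 ± 0.26 in the same order, and Tubb3 -0.76 ± 0.24 and 0.51 ± 0.24. Srxn1 gave 1.35 ± 0.26 at 100 nM and -0.09 ± 0.26 at 10 nM, and Hmgcs1 0.76 ± 0.15 and -0.02 ± 0.15. By itself neither dose gave a call: limma passed 0 of 8491 probe sets (0%) at 100 nM against unstimulated, with 664 at an unadjusted p under 0.05 and a smallest adjusted p of 0.0903, and 0 (0%) at 10 nM, with 708 and a smallest adjusted p of 0.407. With the code letter as a block, which is possible for 100 nM because both groups hold A and D, the count at 100 nM was 21, and with quantile normalisation it was 12.

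The same dose difference was also measured for 4 pulses, 8 pulses and tonic GnRH, each on other arrays but with the same letters. One fit gives each probe set the same standard error in every pattern. The 14 were chosen at 1 pulse partly for a small error, so their passing counts are not independent of that choice. The shares over all probe sets are therefore not a like background for them. All 14 probe sets kept their direction at 4 pulses, and 13 of 14 did at 8 pulses and at tonic GnRH. At 4 pulses 10 passed, where 6.36% of all probe sets did: 9 of the 11 higher ones (background 3.09%) and, of the lower ones, Maf1 (background 3.27%). At 8 pulses 1 of 14 passed (Fosl1, background 0.707%) and at tonic GnRH 1 (Nefm, background 0.801%). The median size of the 14 differences was 1.23 at 1 pulse, 1.23 at 4 pulses, and 0.58 at both 8 pulses and tonic; since the 14 were chosen at 1 pulse, that value is a description. Idi1 gave 1.10 ± 0.18 at 4 pulses (adjusted p = 0.00239), 0.55 ± 0.18 at 8 pulses and 0.38 ± 0.18 at tonic. Cdkn1a reached 2.17 ± 0.22 at 4 pulses (adjusted p = 9.04e-05) and 0.93 ± 0.22 and 0.72 ± 0.22 after that. The brighter probe set of Cdkn1a gave 1.22 ± 0.33 at 4 pulses (adjusted p = 0.0347), 0.49 ± 0.33 at 8 pulses and 0.65 ± 0.33 at tonic. Fosl1 gave 1.55 ± 0.23, 1.29 ± 0.23 (adjusted p = 0.0125) and 0.93 ± 0.23. Hmgcs1 was the one that changed sign, at 0.21 ± 0.15, -0.11 ± 0.15 and -0.11 ± 0.15, none of which passed. Maf1 passed at 4 pulses (-1.05 ± 0.20) and gave -0.25 ± 0.20 and -0.30 ± 0.20 in the others. Whether these 14 differences differed between patterns was tested by the contrast described at the end, which none of them passed.

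**Figure D3:**
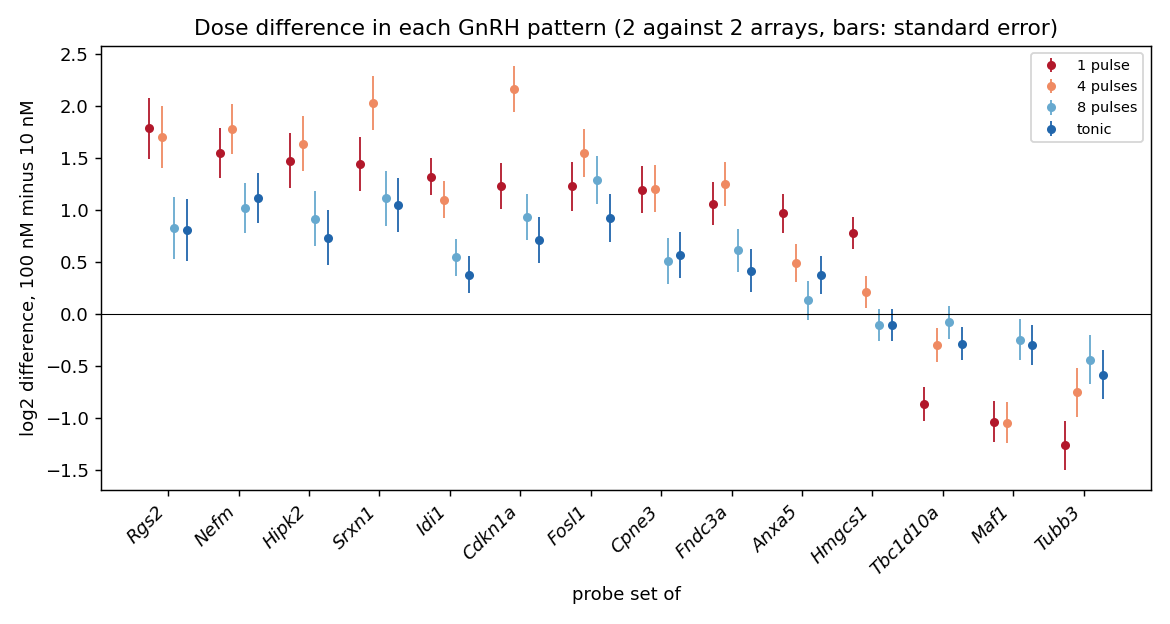
Log2 difference of 100 nM minus 10 nM for the 14 called probe sets in 4 GnRH patterns, each from 2 against 2 arrays, with bars for the standard error. The points for 8 pulses and tonic lie nearer 0 than that for 1 pulse in most genes, and the 4 pulse point of Cdkn1a is the highest, at 2.17.

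The other genes of the pathway were taken from 15 lists. Each gene is represented by the probe set of highest mean signal, and over the 6216 genes so represented 10 were higher (0.161%) and 2 lower (0.0322%), with a median difference of -0.01. Both 100 nM arrays lay above both 10 nM arrays in 22% of these genes and below both in 23%. No list count below is a test of the list.

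Immediate early genes, which respond to GnRH without new protein synthesis, had a median difference of 0.54 over 22 tested, the highest of the lists. Of these 22 genes 1 passed, Fosl1, and none was lower; in 13 both 100 nM arrays exceeded both 10 nM arrays and in 1 (Klf2) the order was reversed. Egr1, an activator of the Lhb promoter, gave 3265 and 3658 at 100 nM against 1380.0 and 644 at 10 nM. The unstimulated arrays were themselves far apart, at 1311 and 3258, so the 100 nM arrays exceeded both only narrowly and 10 nM C lay below them. The difference of 1.69 ± 0.38 did not pass (adjusted p = 0.0856), and a dim second probe set gave 0.64 ± 0.40. Nr4a1, an orphan nuclear receptor, gave 7113 and 11055 against 4844 and 1492, with 2053 and 10938 without GnRH. Its unstimulated arrays span nearly the whole range of the pulsed ones, and the difference was 1.65 ± 0.54 (adjusted p = 0.328). Egr2 gave 1407 and 2415 against 1006 and 574 (1.11 ± 0.36), and its unstimulated arrays 525 and 1563. Atf3 (1.19 ± 0.49), Fos (1.14 ± 0.46), Klf4 (0.91 ± 0.23), Btg2 (0.83 ± 0.21) and Ier2 (0.82 ± 0.24) did not pass either.

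The arrays of one group differed from each other in these genes. Of the 13 immediate early genes with separate doses higher at 100 nM, 11 had a lower signal on 10 nM C than on 10 nM B, and 11 had a higher signal on unstimulated D than on unstimulated A. Over all 1365 such genes the numbers were 667 and 583. Both 100 nM arrays exceeded both unstimulated arrays in 6 of the 13, near the share over all genes. The list's median was 0.38 without 10 nM C and 0.84 without 10 nM B, against 0.54 with both. It was 0.53 after quantile normalisation and 0.51 with array medians set equal.

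Feedback regulators of MAP kinase and Egr signalling had a median of 0.28 over 16 genes, with 1 passing (Rgs2), 10 with separate doses higher at 100 nM and 1 lower. The median was 0.13 without 10 nM C and 0.42 without 10 nM B. Nab1, a corepressor that binds Egr proteins, gave 7076 and 7604 at 100 nM, 3790.2 and 3607 at 10 nM, and 3261 and 3285 without GnRH. The arrays of each group lay close together and the 3 groups did not overlap, with 100 nM highest. Its dose difference of 0.96 ± 0.22 did not pass (adjusted p = 0.0856); it was 1.12 ± 0.22 above unstimulated at 100 nM and 0.17 ± 0.22 at 10 nM. Nab2 differed by 0.25 ± 0.20. The small GTPases Gem and Rrad, which inhibit calcium channels, gave 0.93 ± 0.35 and 0.74 ± 0.32 (adjusted p = 0.411 and 0.467). Against unstimulated, Gem was -4.47e-05 ± 0.35 at 100 nM and -0.93 ± 0.35 at 10 nM. Rrad was 0.51 ± 0.32 and -0.22 ± 0.32 in the same order. Among inhibitors of MAP kinase signalling, Dusp16 gave 0.91 ± 0.31, Spred2 0.77 ± 0.34 and Dusp1 0.16 ± 0.27.

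**Figure D4:**
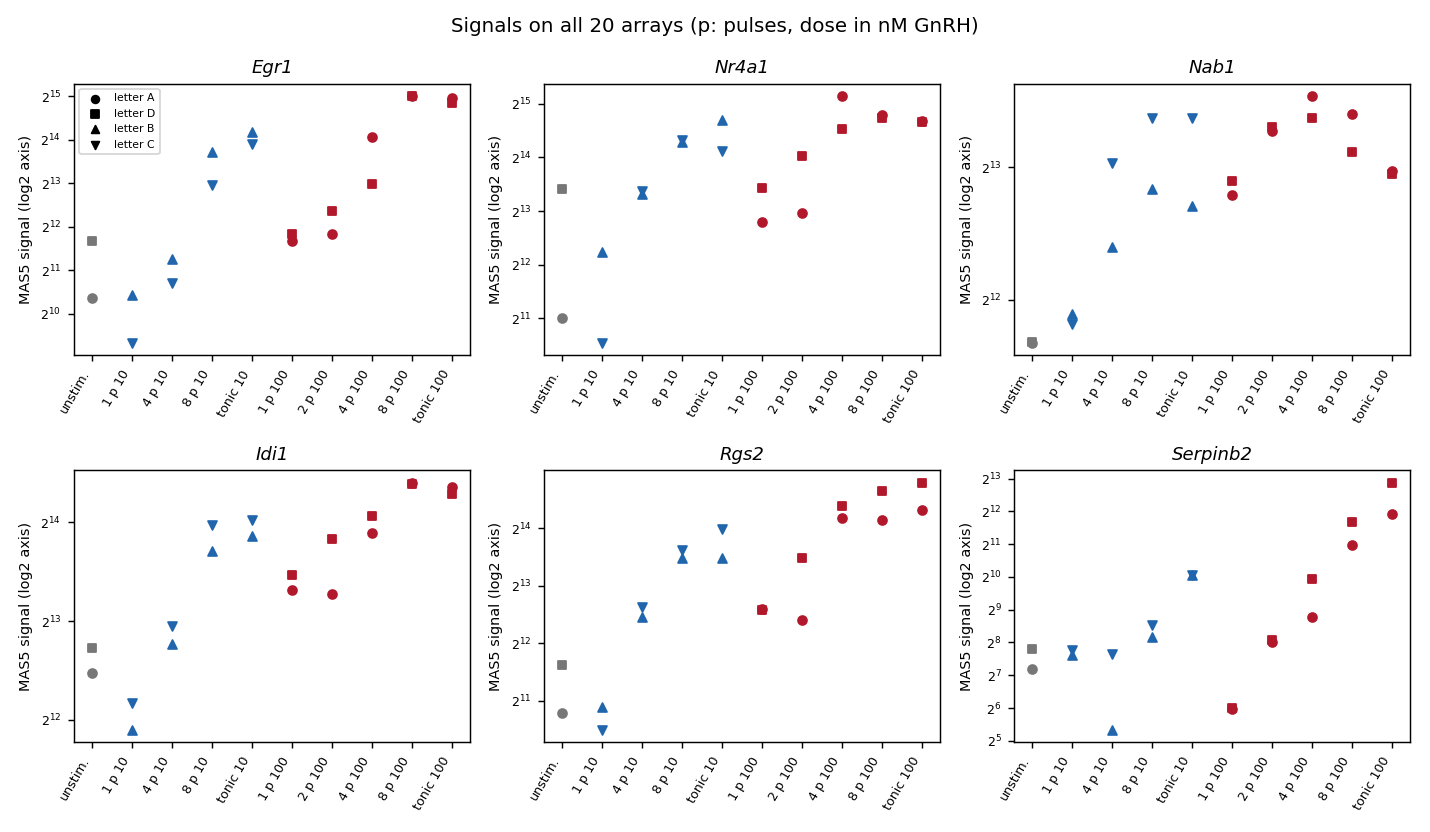
Signals of 6 genes on all 20 arrays, on log2 axes, by group, with grey for unstimulated, blue for 10 nM, red for 100 nM and a marker shape for each code letter. Both single-pulse arrays at 10 nM lie below both at 100 nM in the panels of Egr1, Nr4a1, Nab1, Idi1 and Rgs2, those of Serpinb2 are dim, under 427, and the unstimulated arrays of Egr1 and Nr4a1 are far apart.

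In the unfolded protein response list 0 of 21 passed, 11 had separate doses higher at 100 nM and 0 lower. The median was 0.27 (0.18 without 100 nM A, 0.46 without 100 nM D). Differences above 0 numbered 18 of 21, against 3043 of 6216 over all genes. They numbered 20 of 22 in immediate early genes and 10 of 13 in heat shock genes. The chaperone Hspa5 of the endoplasmic reticulum gave 51534 and 56051 against 35728 and 38418, with 34108 and 50987 without GnRH (0.53 ± 0.17, adjusted p = 0.327). The transcription factor Ddit3 gave 10685 and 14656 against 10409 and 3935, so its separation at 10 nM B was slight (0.95 ± 0.36). The cochaperones Dnajb9 and Dnajc3 gave 0.81 ± 0.33 and 0.80 ± 0.30. A dimmer probe set of Dnajb9 gave 0.66 ± 0.46. Other tested probe sets of Dnajc3 gave 0.39 ± 0.24 and 0.38 ± 0.29, and in both the doses overlapped. Of 13 heat shock genes 0 passed, 8 were separate and higher and 1 lower, with a median of 0.22 (0.11 without 100 nM D). The median of this list against unstimulated was 0.09 at 100 nM and -0.35 at 10 nM. Over all genes these medians were -0.02 and -0.01. Dnaja1, a cochaperone of Hsp70, gave 16778 and 13102 at 100 nM, 9604 and 11467 at 10 nM and 19124 and 16326 without GnRH, so 10 nM was lowest in this gene. In the redox list Srxn1 passed of 20 genes, 7 were separate and higher and 3 lower, and the median was 0.04 (-0.06 without 10 nM C, 0.19 without 10 nM B); Gclc, which makes the catalytic chain of glutathione synthesis, gave 0.68 ± 0.15 (adjusted p = 0.0856).

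Of 15 cholesterol synthesis genes 2 passed (Idi1 and Hmgcs1), 7 were separate and higher, 3 were separate and lower, and the median was 0.08 (0.21 without 100 nM A, 0.05 without 100 nM D). Among the higher ones Lss, lanosterol synthase, gave 2749 and 3369 against 2029 and 2018 (0.55 ± 0.22), Cyp51 5549 and 7368 against 4522 and 4649.8 (0.47 ± 0.18) and Sc5d 3979 and 4127 against 3010.2 and 2608 (0.51 ± 0.29). The lower ones were Nsdhl (-0.44 ± 0.37), Ebp (-0.43 ± 0.18) and Mvd. In 6 of the 7 higher genes both 100 nM arrays also exceeded both unstimulated arrays, as did 527 of the 1365 over all genes.

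Genes of hypoxia and glycolysis had the lowest median, -0.24 over 21 genes, with 0 passing, 1 separate and higher and 8 separate and lower. The median was 0.01 without 100 nM A and -0.49 without 100 nM D, so array A decided its direction. Pfkl and Pfkp, subunits of phosphofructokinase, gave -0.65 ± 0.27 and -0.52 ± 0.22, and the mitophagy receptor Bnip3 -0.72 ± 0.31 (adjusted p = 0.467). A second, dimmer probe set of Pfkp gave -0.17 ± 0.19. In this list the median against unstimulated was near 0 at 100 nM (-0.0041) and 0.27 at 10 nM. Of 34 cell cycle genes 0 passed, 7 were separate and higher and 10 lower, with a median of -0.09 (-0.19 without 10 nM C, -0.03 without 10 nM B). Cdkn1a is in this list through its brighter probe set, the largest difference there at 0.98 ± 0.33 (adjusted p = 0.332). Its called probe set is not counted here. The polo kinase Plk1 gave -0.48 ± 0.19 and the helicase subunit Mcm7 -0.47 ± 0.17, while the proliferation antigen Mki67 gave 0.63 ± 0.24. A second, dimmer probe set of Mki67 gave -0.18 ± 0.27. In 16 clock genes 0 passed and the median was -0.08 (0.04 without 10 nM B, -0.19 without 10 nM C), with the repressor Nfil3 at 0.84 ± 0.43 and the PAR factor Tef at -0.62 ± 0.30.

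In the list of gonadotrope genes 0 of 19 tested passed, 6 were separate and higher and 3 lower, and the median was 0.00055, with its sign changing between scalings (-0.04 with array medians set equal) and a value of 0.08 without 100 nM D. Lhb gave 3227 and 2852 at 100 nM, 3361 and 3661 at 10 nM and 2872 and 2610.2 without GnRH, a dose difference of -0.20 ± 0.19 (adjusted p = 0.79). Cga gave 0.05 ± 0.20 and Gnrhr 0.13 ± 0.26. A second probe set of Cga gave 0.29 ± 0.18 (adjusted p = 0.63), with both 100 nM arrays above both 10 nM arrays. The largest in this list was Inhbb, the beta B chain of inhibins and activins, with 2295 and 2912 against 4312 and 5071 and 3669.7 and 4667 without GnRH. Both 100 nM arrays of Inhbb lay below the other 4, and the difference of -0.82 ± 0.29 did not pass (adjusted p = 0.362). Of the 23 genes that carry the signal from the GnRH receptor 0 passed, 5 were separate and higher and 3 lower, with a median of -0.01 (0.06 without 100 nM D, -0.03 without 10 nM C); Prkcb, a protein kinase C, gave 0.49 ± 0.17.

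Of 21 secretory granule and exocytosis genes 0 passed, 6 were separate and higher and 3 lower, and the median was 0.05 (-0.02 without 10 nM C, 0.12 without 10 nM B). Syt4, a synaptotagmin of secretory vesicles, gave 22842 and 19299.6 at 100 nM, 10966 and 11313 at 10 nM and 11327 and 11234 without GnRH. Its 100 nM arrays stood above the other 4, which lay within a narrow range, and the difference was 0.90 ± 0.20 (adjusted p = 0.0856). Snap25, part of the fusion complex, gave 0.67 ± 0.22, and Nsf, which takes that complex apart, -1.14 ± 0.33. The value of Nsf rested on 100 nM A, at 269 against 1137 on 100 nM D and 1449 and 1533 at 10 nM. In the cytoskeleton list 0 of 21 passed and the median was 0.13 (-0.02 without 10 nM C, 0.21 without 10 nM B); the tropomyosin Tpm1 gave 11159 and 8653 against 5908 and 5417 (0.78 ± 0.18, adjusted p = 0.103) and the profilin Pfn1 -0.71 ± 0.24. Of 15 ribosomal protein genes 0 passed and 0 were separate in either direction, and the median was -0.02 (-0.18 without 100 nM D, 0.11 without 100 nM A).

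**Figure D5:**
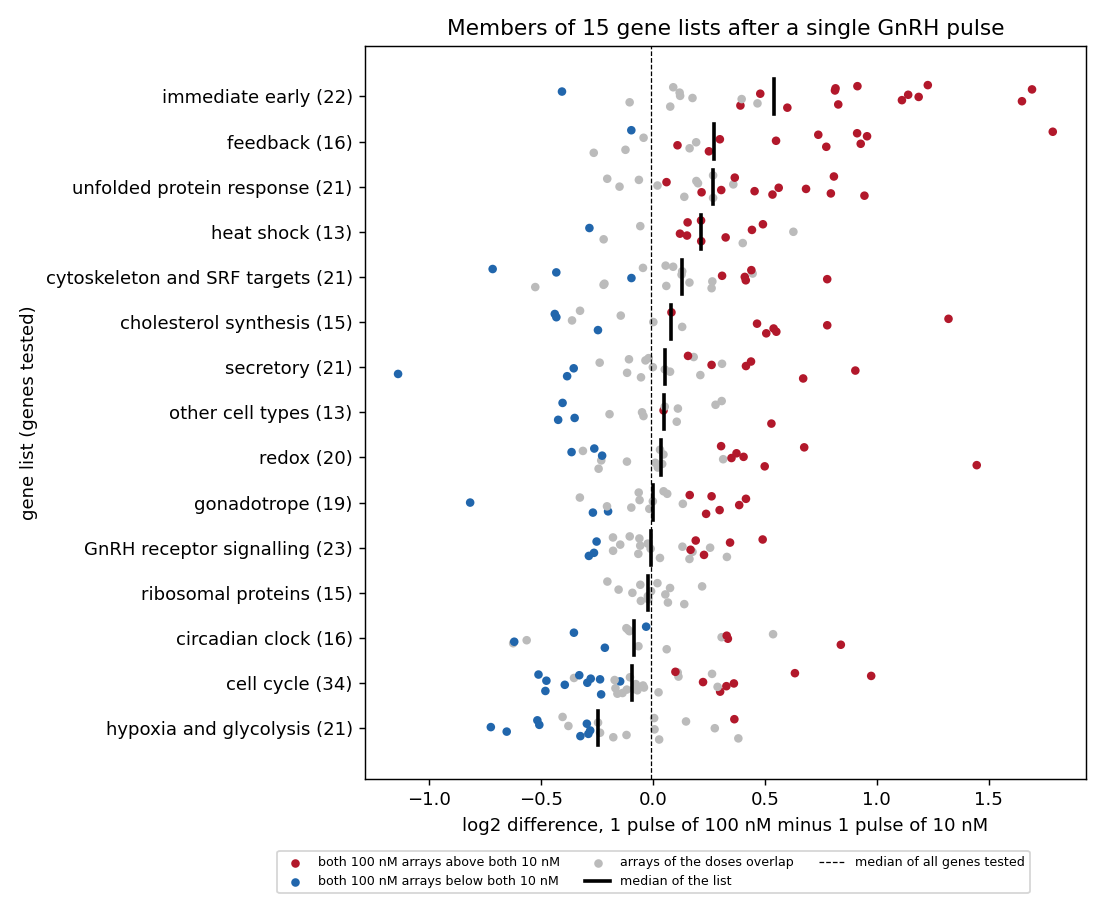
Members of the 15 gene lists, 1 point a gene, by log2 difference of 1 pulse of 100 nM minus 1 pulse of 10 nM, red where both 100 nM arrays exceed both 10 nM arrays, blue where both lie below and grey where the doses overlap. The black bars are list medians, from 0.54 for immediate early genes to -0.24 for hypoxia and glycolysis, and the dashed line is the median of all genes tested, -0.01.

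Of 20 markers of other cell types on the array 13 passed the filter on low signals and 0 of these passed the test; 2 were separate and higher, among them Cd68 of macrophages (0.53), and 3 lower, among them Cdh5 of endothelium (-0.42) and the dopamine receptor Drd2 (-0.40). Their summed signal was 19463 and 20669 at 100 nM, 24072 and 21538 at 10 nM and 21133 and 20437 without GnRH, and none was at 0 on these 6 arrays. Their part in the dose difference was not tested.

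Mmp12, the macrophage metalloelastase, gave 686 and 316 at 100 nM, 239 and 80.2 at 10 nM and 331 and 259.5 without GnRH. Its unstimulated arrays overlapped the 100 nM arrays, and all but 1 of these 6 signals lay under the filter signal of 427. The dose difference was 1.02 ± 0.33 (adjusted p = 0.327), against 2.84 ± 0.33 at 4 pulses, 2.31 ± 0.33 at 8 pulses and 2.10 ± 0.33 at tonic GnRH, and a second probe set gave 0.42 ± 0.39 at 1 pulse.

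The dose difference at 1 pulse was also set against the mean of the dose differences at 4 pulses, 8 pulses and tonic GnRH, a contrast in which an offset common to the letters of a dose cancels. It passed for 1 of 8491 probe sets (0.0118%), that of Serpinb2, an inhibitor of plasminogen activators, with 336 at an unadjusted p under 0.05. After 1 pulse Serpinb2 gave 62.1 and 64.4 at 100 nM, 197 and 219 at 10 nM and 147 and 222 without GnRH. All 6 signals lay under the filter signal of 427, so Serpinb2 was tested only because of its signals in other groups, and its difference at 1 pulse is one between dim signals that did not pass. At tonic GnRH its signals were 3894 and 7510.3 at 100 nM against 1062 and 1069 at 10 nM. The dose difference was -0.70 ± 0.35 at 1 pulse (adjusted p = 0.545), 1.59 ± 0.35 at 4 pulses, 2.47 ± 0.35 at 8 pulses and 2.18 ± 0.35 at tonic GnRH (adjusted p = 0.0123, 0.00199 and 0.00462). The contrast of -2.78 ± 0.40 (adjusted p = 0.0135) includes that difference and is not a test of lower Serpinb2 at 100 nM after 1 pulse. Without 1 of the 4 single-pulse arrays it no longer passed (adjusted p = 0.0855 to 0.207), and with no filter on low signals its adjusted p was 0.0794.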

How the data were processed

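RNA of 20 arrays was measured; the deposited values are probe set intensities that the authors made with MAS5, per the submitters' processing notes. The sources used here do not give the MAS5 version, the chip description file or the scaling target. The 2% trimmed mean of every array was 2501.25 to 2501.75, and this scaling was kept. All 20 columns were mapped by title and 0 were left out.

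Intensities were transformed as log2(signal + 166.8). After removal of 66 controls from 12488 probe sets, 8491 with a signal over 427 (the 40th percentile) on at least 2 arrays were kept. Limma 3.58.1 in R 4.3.3 fitted 10 group means to 20 arrays (10 residual degrees of freedom, prior 8.20, eBayes with an intensity trend). Tests were two-sided, with Benjamini-Hochberg adjustment at 0.05 over all probe sets of a comparison, and the scripts were tested on simulated data. The doses at 1 pulse were compared with each other and each with unstimulated arrays, and the dose difference at 1 pulse with the mean of those at 4 pulses, 8 pulses and tonic. The number of arrays limits the precision.

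The platform annotation ties 10833 probe sets to 1 gene, 396 to several, and does not list 1193. Genes named are the 8 highest and 8 lowest differences past the threshold, filled up where fewer passed by the smallest p with separate doses, up to 3 members of each of 15 gene lists, the called probe sets of the comparison of dose differences, and 12 genes always given (Egr1, Egr2, Nab1, Nab2, Lhb, Fshb, Cga, Gnrhr, Rgs2, Rrad, Mmp12 and Srxn1). A few list members beyond 3 were added after their values were seen. Arrays, lists and rules were chosen with earlier results of these data known.

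Groups follow the titles; in 8 of 20 samples, 2 of them used here, the pulse number field contradicts the title. Alternatives were quantile normalisation, equal medians, a floor or a lower constant for low signals, no filter or a stricter one, no trend, the letter as a random or fixed block, fewer groups, other groupings, leaving out each array or the 3 of highest Gapdh ratio, and other probe sets. Setting the dose difference against 4 pulses, 8 pulses or tonic alone was added after seeing the data.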

Additional observations from a re-analysis of the deposited data

Results flagged for a closer look

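For Serpinb2, the dose difference (100 nM minus 10 nM) at 1 pulse minus the mean dose difference at 4 pulses, 8 pulses and tonic GnRH was -2.78 ± 0.40 on the log2 scale, by limma's test of the difference itself (adjusted p = 0.0135). The signals at 1 pulse were dim, at 62.1 and 64.4 for 100 nM and 197 and 219 for 10 nM, all under the filter signal of 427, and the difference at 1 pulse did not pass (adjusted p = 0.545), so no order of the doses is read from it. In the other 3 patterns both 100 nM arrays lay above both 10 nM arrays. The adjusted p of the contrast was 0.0794 with no filter on low signals and 0.0855 to 0.207 without 1 of the 4 single-pulse arrays.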

How the results depend on the processing

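Of the 14 calls between doses, 4 remained with array medians set equal, 1 with no filter, 1 with no intensity trend, 6 with only the compared groups, 7 without the 3 arrays of highest Gapdh ratio (2 of them at 4 pulses of 100 nM) and 0 with groups from the characteristics or with only samples whose labels agree (685 at an unadjusted p under 0.05, with 1 array a dose assumed to vary like the other groups). Other settings gave 14 to 21, each with all 14. Leaving out 1 array gave 0 to 18; besides the 4 compared arrays, 4 pulses 100 nM A or D lowered the count to 8. Over 31 settings other than groups from the characteristics, Idi1 was called in 27 (difference 1.19 to 1.45) and Hmgcs1 in 7.

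For the dose difference against other patterns, the count of 1 became 2 with the letter as a fixed replicate block (0.00117 for the adjusted p of Serpinb2), and 0 with no filter (533 at an unadjusted p under 0.05), with groups from the characteristics (103), with only samples whose labels agree (300), against 4 pulses alone (291) and against tonic alone (341). Leaving out 1 array gave 0 to 3. Serpinb2 changed sign, to 0.34, with groups from the characteristics. The fit without the 3 arrays of highest Gapdh ratio was not run here, since both arrays at 4 pulses of 100 nM are among them.

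At 100 nM against unstimulated, the count of 0 became 12 with quantile normalisation, 14 with the letter as a random block and 21 with the letter as a fixed replicate block; leaving out 1 array gave 0 to 3, the 3 without unstimulated A. At 10 nM the settings other than leaving out an array gave 0, and leaving out 1 array gave 0 to 2, the 2 without unstimulated A. No fixed block of the letter was possible for the doses or for 10 nM against unstimulated, because the letter lies within the dose. The causes of these changes in count were not tested. With 2 arrays a dose, smaller differences cannot be separated from the spread.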
